A study of Mus musculus with 14 samples.

Results

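The immediate early transcription factors Egr1, Egr2 and Egr3, the Egr co-repressors Nab1 and Nab2, the AP-1 subunits Fos, Fosb, Jun and Junb and the nuclear protein gene Ier2 were followed in primary mouse erythroid progenitors with and without erythropoietin (EPO), the cytokine that drives red cell formation. Members were chosen by gene symbol, with earlier results of these data known. Every probe set that the array annotation assigned to 1 of these 10 genes alone was taken. This gave 15 of 45037 probe sets tested and 10 of 18193 genes named in this way. Marrow came from female wild-type C57Bl/6 mice aged 8 to 12 weeks and was expanded in SP34ex medium, whose additions included EPO, stem cell factor and dexamethasone. Stage E1 (CFUe-like progenitors) was isolated on day 3 as lineage-depleted Kit+CD71+ cells, and stage E2 (proerythroblasts) on day 3.5 as lineage-depleted, Kit-depleted CD71+ cells. All cells then spent 5.5 h without cytokines, in medium that still held insulin and transferrin. They next received EPO at 4 U/mL or carrier alone, and RNA was taken 90 min later, so that a rise and fall within that time would not be seen. There were 4 arrays each of E1 without and with EPO, and 3 arrays each of E2 without and with EPO. The labels call the arrays biological replicates and do not say whether animals were pooled. In whole populations such as these, fewer cells of a type and less RNA per cell cannot be told apart.

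Immediate early genes are switched on by transcription factors already present in the cell, so they respond to a growth factor before new protein is made. The EPO receptor works through the kinase Jak2, which activates Stat5 and, through Ras, the kinase ERK, and ERK in turn activates partners of the serum response factor SRF at many early gene promoters. EGR proteins are zinc finger factors that bind GC-rich sites and recruit NAB proteins as co-repressors, while FOS and JUN proteins pair to form the AP-1 factor.

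The upstream sequences are shown because these genes are classed by the factors that reach them. Windows before RefSeq start sites on GRCm38.p6 were read for 7 of the 10 genes. Egr3 and Ier2 had none in the table used. Egr1 was left out by choice, so its promoter was not examined. The 250 bases before the start are given 5′ to 3′ along the gene for the 5 genes with a window that rose with EPO in E2, and capitals mark matches to an EGR motif (GCGNGGGCG).
Nab1, chr1:52500449-52500698, minus strand: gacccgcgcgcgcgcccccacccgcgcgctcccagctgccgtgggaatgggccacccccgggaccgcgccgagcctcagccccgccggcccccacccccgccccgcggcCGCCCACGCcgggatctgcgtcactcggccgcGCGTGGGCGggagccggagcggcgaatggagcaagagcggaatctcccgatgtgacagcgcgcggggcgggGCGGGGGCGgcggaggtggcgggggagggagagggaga
Nab2, chr10:127666704-127666953, minus strand: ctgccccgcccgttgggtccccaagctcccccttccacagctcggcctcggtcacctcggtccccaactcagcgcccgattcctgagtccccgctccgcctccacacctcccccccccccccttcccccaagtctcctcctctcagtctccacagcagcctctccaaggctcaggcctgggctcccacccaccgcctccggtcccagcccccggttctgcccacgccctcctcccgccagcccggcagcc
Fos, chr12:85473640-85473889, plus strand: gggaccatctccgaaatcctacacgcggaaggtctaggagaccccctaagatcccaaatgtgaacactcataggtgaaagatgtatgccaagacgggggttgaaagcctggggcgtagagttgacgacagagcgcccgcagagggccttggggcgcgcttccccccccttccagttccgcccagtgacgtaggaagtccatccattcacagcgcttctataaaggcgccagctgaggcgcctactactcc
Jun, chr4:95052223-95052472, minus strand: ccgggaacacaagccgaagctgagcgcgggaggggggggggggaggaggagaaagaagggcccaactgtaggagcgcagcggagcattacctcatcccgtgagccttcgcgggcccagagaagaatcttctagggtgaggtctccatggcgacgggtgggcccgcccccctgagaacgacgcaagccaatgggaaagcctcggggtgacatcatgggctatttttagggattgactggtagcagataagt
Junb, chr8:84978749-84978998, minus strand: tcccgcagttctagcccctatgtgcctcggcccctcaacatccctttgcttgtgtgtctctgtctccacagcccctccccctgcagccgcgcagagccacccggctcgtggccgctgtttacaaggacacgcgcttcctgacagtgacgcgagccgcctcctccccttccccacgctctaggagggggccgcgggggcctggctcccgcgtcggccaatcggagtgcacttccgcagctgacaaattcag
The Nab1 window held 3 EGR matches, on the minus strand relative to the gene at bases -141 to -133 and on the plus strand at -109 to -101 and -38 to -30 from the start. Of 32817 windows of the same length, 4.7% held at least 1 such match and 0.14% held at least 3. The fixed bases of this motif are all G or C. The Nab1 window was 80.8% G or C, against 58.4% (Fos) to 72.8% (Nab2) in the other windows printed. The shares were not taken over windows of like composition, so they do not show that 3 matches are unusual for such a window. Windows of Nab2, Fos, Jun and Junb held no match, on either strand, to this motif or to a CArG box, the SRF site (1.47% of windows), a STAT site (TTCNNNGAA, 7.01%), a cyclic AMP response element (TGACGTCA, 1.55%) or an AP-1 site (TGANTCA, 6.75%). Egr2 had 5 annotated starts, and 4 of their windows held a CArG box: CCTTTTTTGG at bases -72 to -63 in 1, and a single genomic CCATATATGG in 3 overlapping windows, at -72 to -63, -73 to -64 and -133 to -124. The Fosb window held 1 EGR match at -50 to -42. Sites outside these 250 bases were not searched, so a window without a match does not show that a gene lacks the site. Such matches describe letters only, and binding was not measured.

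Each deposited value is a log2 expression value from which 1 constant per probe set had been subtracted. A value therefore gives no absolute level, cannot be set against that of another probe set, and is read only as a difference between arrays. Cish, an inhibitor of cytokine signaling and a direct EPO target, served as a check of EPO exposure and rose by 5.35 on this scale in E1 and 4.02 in E2. Kit, by which the stages were sorted, gave E2 minus E1 differences of -2.69 and -3.98 without EPO for its 2 probe sets. The 8 E1 arrays were more dispersed than the 6 E2 arrays: the median SD of a probe set between replicates was 0.0934 and 0.0729 in E1 without and with EPO, and 0.0317 and 0.0343 in E2. Calls below are limma adjusted p-values under 0.05 over all probe sets.

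**Figure D1:**
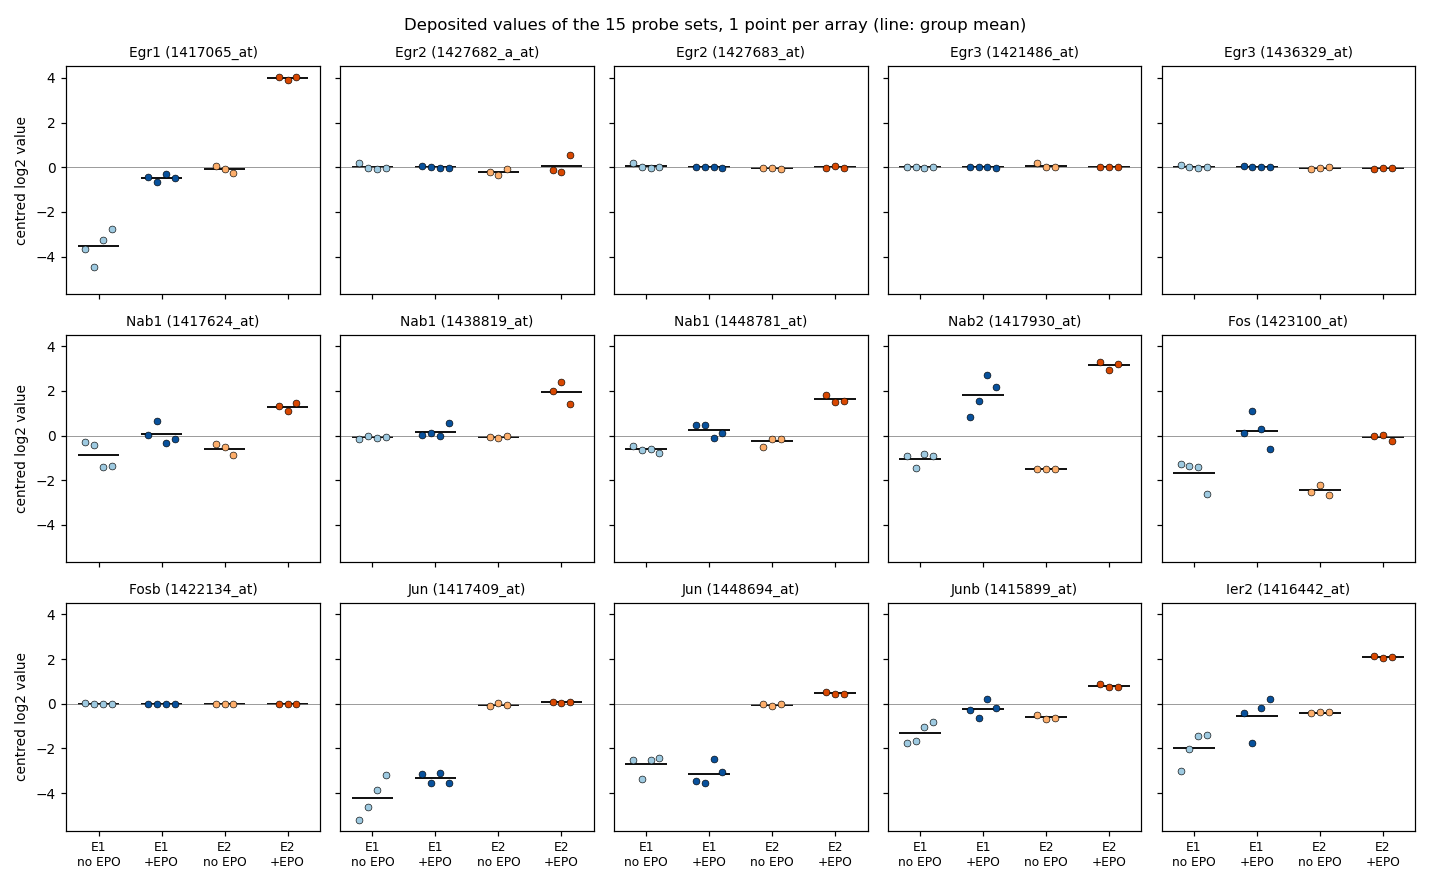
Centred log2 value (vertical axis, same range in every panel) of each of the 15 probe sets in the 14 arrays, by group; points are arrays and lines are group means. The Egr1 points climb from E1 without EPO to E2 with EPO, the Nab2 and Fos points separate by EPO, the Jun points separate by stage, and the Egr2, Egr3 and Fosb points stay near 0.

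The question within each stage was which of these genes responded to EPO. Egr1 and Nab2 rose in both stages. Fos, Junb, Ier2 and Nab1 rose in E2 and had positive differences in E1 that did not pass the test. Jun rose slightly in E2 by 1 of its 2 probe sets, and no call was made for Egr2, Egr3 or Fosb in either stage. In E1, 2 of the 15 probe sets (2 of 10 genes) were called higher and 0 lower (7 higher and 0 lower at an unadjusted limma p under 0.05), where 0.804% of all probe sets and 1.46% of all genes were called higher. In E2, 9 of 15 probe sets (7 of 10 genes) were called higher and 0 lower, against 2.54% of all probe sets and 4.53% of all genes. The probe set counts in E2 were the same at an unadjusted limma p under 0.05. Over all 45037 probe sets, 3982 in E1 and 7416 in E2 had an unadjusted limma p under 0.05, in either direction. Members were chosen with earlier results of these data known, so setting them beside these shares is description and not a test. The median difference over the 15 probe sets was 0.85 in E1 and 1.42 in E2, and over all probe sets it was -0.0047 and -0.0049.

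Egr1 is a zinc finger factor induced by many growth factors. Its values in E1 were -3.67, -4.45, -3.26 and -2.74 without EPO and -0.45, -0.65, -0.29 and -0.48 with EPO. In E2 they were 0.06, -0.06 and -0.24 without EPO and 4.03, 3.93 and 4.06 with EPO. The groups did not overlap in either stage, and the E1 arrays given EPO all lay just below the E2 arrays without it. The E1 difference was 3.06 (SE 0.35, 8.35-fold, adjusted p = 0.0129), and each of the 4 same-numbered pairs of arrays was higher with EPO, by 2.26 to 3.80. The E2 difference was 4.08 (SE 0.086, 17.0-fold, adjusted p = 0.000562), ranking 6 from the top of all probe sets. The E1 call was lost with the replicate number as a block (adjusted p = 0.0845), and also without replicate 1 of the untreated arrays (3.02, adjusted p = 0.0513) or replicate 3 of the EPO arrays (3.00, adjusted p = 0.0577).

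Nab2 encodes a protein that binds EGR factors and represses their targets. In E1 its values were -0.94, -1.45, -0.82 and -0.92 without EPO and 0.82, 1.57, 2.72 and 2.18 with it. In E2 they were -1.48, -1.50 and -1.49 without EPO and 3.30, 2.94 and 3.19 with it. The untreated arrays sat close together in both stages and every EPO array lay well above them, with the widest spread among E1 arrays given EPO. The difference was 2.85 in E1 (SE 0.41, 7.22-fold, adjusted p = 0.0296), with all 4 pairs higher by 1.75 to 3.53. In E2 it was 4.63 (SE 0.096, 24.8-fold, adjusted p = 0.00056), ranking 4 from the top of all probe sets and standing higher than Egr1. The E1 call was lost under the block (adjusted p = 0.120) and without any 1 of 7 of the 8 arrays, EPO replicate 1 being the exception (adjusted p from 0.0607 to 0.0928).

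Nab1, the other EGR co-repressor, was measured by 3 probe sets. In E2 the most precise of them, 1448781_at, gave -0.50, -0.15 and -0.13 without EPO and 1.81, 1.51 and 1.56 with it. In E1 its values were -0.45, -0.63, -0.61 and -0.76 without EPO and 0.47, 0.49, -0.13 and 0.13 with it. Neither stage's groups overlapped. The E2 difference was 1.89 (SE 0.14, 3.71-fold, adjusted p = 0.00665), and the E1 difference was 0.85 (SE 0.15, adjusted p = 0.0634). The other probe sets gave E2 differences of 1.88 (1417624_at, adjusted p = 0.0116) and 2.0 (1438819_at, adjusted p = 0.0272). Their E1 differences were 0.92 and 0.26, with adjusted p = 0.460 and 0.700, and the latter was 0.13 without EPO replicate 4, which stood above the other EPO arrays. All 3 probe sets were thus called higher in E2 and none in E1. Each was higher in 4 of 4 E1 pairs, which for 1438819_at and 1448781_at follows from groups that did not overlap. The E2 call of 1438819_at was lost without any 1 untreated array or without EPO replicate 1 (adjusted p from 0.0906 to 0.108), and that of 1417624_at without untreated replicate 2 (adjusted p = 0.0540) or EPO replicate 1 (adjusted p = 0.0517).

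Fos, the AP-1 subunit whose promoter is the classic SRF target, had values in E2 of -2.51, -2.21 and -2.65 without EPO and -0.01, 0.01 and -0.25 with it. In E1 they were -1.25, -1.37, -1.43 and -2.63 without EPO and 0.11, 1.08, 0.28 and -0.61 with it. The groups were apart in both stages, and replicate 4 was the lowest array on both sides in E1. The E2 difference was 2.37 (SE 0.14, 5.18-fold, adjusted p = 0.00382). The E1 difference was 1.89 (SE 0.44, 3.70-fold, adjusted p = 0.152), and all 4 pairs were higher by 1.36 to 2.45.

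Junb encodes the JUN-family partner of FOS. Its E2 values were -0.49, -0.68 and -0.65 without EPO and 0.91, 0.76 and 0.77 with it. Its E1 values were -1.78, -1.67, -1.04 and -0.83 without EPO and -0.27, -0.63, 0.20 and -0.20 with it. Again no EPO array fell among the untreated ones. The difference was 1.42 in E2 (SE 0.070, 2.67-fold, adjusted p = 0.00279) and 1.10 in E1 (SE 0.27, 2.15-fold, adjusted p = 0.167), with all 4 E1 pairs higher by 0.63 to 1.51.

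Ier2, an immediate early gene for a small nuclear protein, had the smallest standard error among the 9 probe sets called in E2. Its E2 values were -0.43, -0.38 and -0.37 without EPO and 2.15, 2.06 and 2.08 with it, a difference of 2.49 (SE 0.030, 5.63-fold, adjusted p = 0.000197). Its E1 values were -3.02, -2.01, -1.44 and -1.41 without EPO and -0.41, -1.77, -0.21 and 0.21 with it. In E1 the groups overlapped, with EPO replicate 2 at -1.77 below 2 of the untreated arrays. The E1 difference was 1.43 (SE 0.53, adjusted p = 0.458) and the pairs were higher by 0.25 to 2.61.

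Jun, which forms AP-1 with FOS or with itself, was measured by 2 probe sets that did not move alike. Probe set 1448694_at stood at 0.00, -0.11 and 0.00 in untreated E2 arrays and at 0.52, 0.45 and 0.42 in E2 arrays given EPO. That difference was 0.50 (SE 0.044, 1.42-fold, adjusted p = 0.0105), and the call was lost when the spread was estimated over all 14 arrays (adjusted p = 0.770). Probe set 1417409_at differed by 0.11 in E2 (95% interval -0.0039 to 0.23, adjusted p = 0.321). In E1 probe set 1448694_at differed by -0.42 (interval -1.16 to 0.32) and 1417409_at by 0.88 (interval -0.15 to 1.91), with groups that overlapped and opposite signs.

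Egr2 and Egr3 are close relatives of Egr1, and Fosb is a close relative of Fos. Over the 14 arrays the Fosb probe set spanned 0.0425, the Egr3 probe sets 0.190 and 0.164, and the Egr2 probe sets 0.921 and 0.250. Only 4.31% of all probe sets had a smaller SD than that of Fosb. The widest of these ranges came from a single array, E2 with EPO replicate 3, at 0.57 on Egr2 probe set 1427682_a_at, where the other E2 arrays with EPO stood at -0.14 and -0.20. The 95% intervals of the EPO differences lay within -0.21 and 0.15 for all 5 probe sets in both stages, other than Egr2 1427682_a_at, whose upper bound was 0.91 in E2 and whose lower bound was -0.32. A probe set that stays flat can belong to a gene below the range of the array as well as to one at a steady level, and centred values do not separate these.

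**Figure D2:**
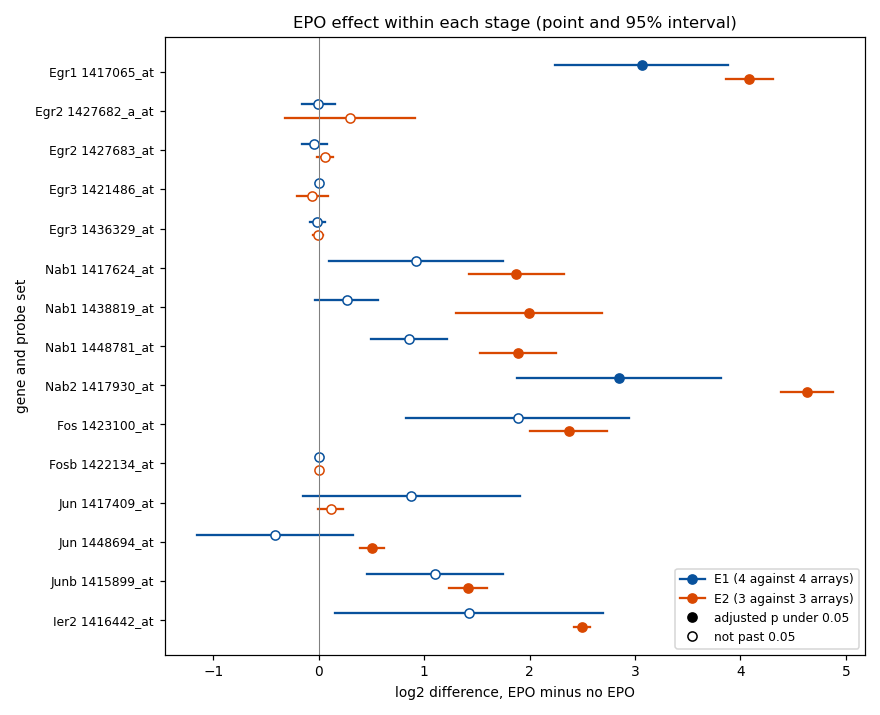
Log2 difference between arrays with and without EPO (horizontal axis) for each probe set (vertical axis) in E1 (blue, 4 against 4 arrays) and E2 (orange, 3 against 3 arrays); lines are 95% intervals and filled points passed an adjusted p of 0.05. The E2 points of 9 probe sets are filled and the E1 points of Egr1 and Nab2, and the E1 intervals are wider than those of E2 for most members.

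Counting arrays rather than tests gave 6 of 15 probe sets in E1 whose EPO arrays all lay above the untreated arrays (Egr1, Nab2, Fos, Junb and Nab1 probe sets 1438819_at and 1448781_at), where 3.28% of all probe sets did so. In E2 there were 10 such probe sets, against 9.42% of all: the 9 that were called and Egr2 1427683_at, whose difference was 0.060 (adjusted p = 0.430). Same-numbered E1 arrays deviated weakly together. Of 15 probe sets, 8 were higher with EPO in 4 of 4 pairs (Egr1, Nab2, Fos, Junb, Ier2 and all 3 of Nab1), where 7.48% of all probe sets were. For the 6 probe sets without overlap this follows from the separation of the groups. The pairs add only Ier2 and Nab1 1417624_at to that count. With the spread estimated over all 14 arrays, Nab1 1448781_at, Fos and Junb also passed in E1 (limma adjusted p = 0.00697, 0.0143 and 0.0167). That fit takes part of its spread from the less dispersed E2 arrays, while the E1 differences are unchanged. These passes are therefore no added evidence for E1.

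Whether the EPO effect itself differed between the stages was tested as the stage by EPO interaction over all 14 arrays. A single member passed, Nab1 probe set 1438819_at, with an E2 effect larger by 1.73 (SE 0.28, adjusted p = 0.0268), where 0.18% of all probe sets and 0.33% of all genes were called in that direction. Its E1 arrays moved from -0.15, -0.02, -0.09 and -0.09 to 0.04, 0.11, 0.00 and 0.57, and its E2 arrays from -0.06, -0.11 and -0.01 to 1.99, 2.41 and 1.41. The other Nab1 probe sets had interactions of 1.04 (adjusted p = 0.0954) and 0.95 (adjusted p = 0.729). For Nab2 the E2 effect was larger by 1.78 (95% interval 0.68 to 2.88, adjusted p = 0.252), and for Egr1 by 1.02 (interval 0.085 to 1.96, adjusted p = 0.616). For Ier2 it was 1.07 (interval -0.36 to 2.49), for Fos 0.49 (interval -0.73 to 1.70) and for Junb 0.31 (interval -0.42 to 1.05), so that calls made in E2 and missed in E1 are not shown to be differences between stages. The Nab1 call was lost with the replicate number as a block within each stage (adjusted p = 0.150) and without 1 of 8 of the 14 arrays in turn (adjusted p from 0.0506 to 0.0801). Quantile normalization, which gives every array the same distribution, raised the count to 9 of 15 probe sets, among them Egr1 (3.99), Nab2 (6.12) and Fos (3.61). It also raised the share of all probe sets called in either direction from 0.415% to 3.81%.

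The second question was how the stages differed at the same EPO status. Without EPO, Jun and Egr1 stood far higher in E2 proerythroblasts than in E1 progenitors, and Ier2 was also higher. No member was called lower by limma, and 1 was lower at an unadjusted p under 0.05. Over all 45037 probe sets, 15737 had an unadjusted limma p under 0.05 between the untreated stages, in either direction. The untreated Jun arrays (1417409_at) read -5.22, -4.61, -3.86 and -3.18 in E1 and -0.12, 0.04 and -0.04 in E2, a difference of 4.18 (SE 0.37, 18.1-fold, adjusted p = 1.09e-05). The other Jun probe set read -2.53, -3.39, -2.50 and -2.41 in E1 and 2.67 higher in E2 (SE 0.27, 6.37-fold, adjusted p = 2.79e-05). Both Jun probe sets separated the stages without overlap. Egr1 was 3.45 higher in E2 (SE 0.30, 10.9-fold, adjusted p = 9.24e-06) and Ier2 was 1.57 higher (SE 0.46, 2.98-fold, adjusted p = 0.0310). In all, 4 of 15 probe sets (3 of 10 genes) were called higher, where 10.1% of all probe sets and 15.4% of all genes were. The Ier2 call was lost under quantile normalization (0.42, adjusted p = 0.347), without untreated E1 replicate 1 or 2, and without any 1 of the 3 untreated E2 arrays (adjusted p from 0.0609 to 0.0886).

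Junb, Fos, Nab1 and Nab2 were not called between the untreated stages. Junb was 0.73 higher in E2 with groups that did not overlap (adjusted p = 0.0505). It was called higher with only the probe sets of larger SD (adjusted p = 0.0195) and with only those naming 1 gene (adjusted p = 0.0456). Leaving out untreated E1 replicate 3 or 4 also gave a call (adjusted p = 0.0412 and 0.0154). So did leaving out E1 EPO replicate 2 or 3 (adjusted p = 0.0393 and 0.0403), which enter this contrast only through the shared spread. Under quantile normalization the sign of Junb turned (-0.50, adjusted p = 0.0419). Fos differed by -0.78 (95% interval -1.64 to 0.078, adjusted p = 0.175), and by -1.10 without the untreated E1 replicate 4, when it was called lower (adjusted p = 0.0394). Nab2 differed by -0.46 (interval -1.24 to 0.32, adjusted p = 0.332). Both Fos and Nab2 were called lower in E2 under quantile normalization, at -3.88 and -2.47. On centred values that setting also changes the size of differences. Without EPO, 5 probe sets lay wholly higher and 4 wholly lower in E2, against 13.1% and 38% of all probe sets.

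With EPO on both sides, 9 of 15 probe sets (6 of 10 genes) were higher in E2, where 10.3% of all probe sets and 15.8% of all genes were. Egr1 was 4.47 higher (22.2-fold), Jun 3.42 and 3.59 higher, and Ier2 2.64 higher. The Nab1 probe sets were 1.24, 1.76 and 1.39 higher, Nab2 was 1.32 higher (adjusted p = 0.0191) and Junb 1.04 higher (adjusted p = 0.00750). Among the genes that rose with EPO in E2, Fos was not called higher, at -0.30 (95% interval -1.16 to 0.56). The Nab2 call was lost without E2 EPO replicate 1 (adjusted p = 0.0717) or 3 (adjusted p = 0.0625), and that of Nab1 1417624_at without E2 EPO replicate 3 (adjusted p = 0.0608).

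**Figure D3:**
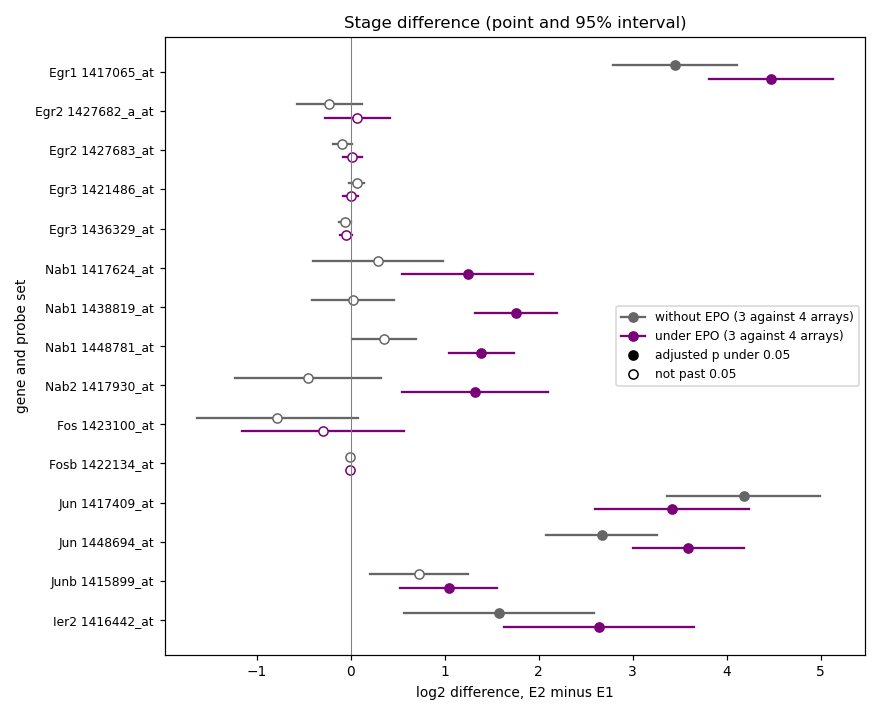
Log2 difference between E2 and E1 (horizontal axis) for each probe set (vertical axis) without EPO (grey) and under EPO (purple), each 3 E2 against 4 E1 arrays; lines are 95% intervals and filled points passed an adjusted p of 0.05. Egr1, Jun and Ier2 are filled in both comparisons, Nab1, Nab2 and Junb under EPO alone, and Fos in neither.

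Markers of other cells moved with the stage, and their part in the stage differences was not tested. Over all genes, 31.6% were called in either direction between the untreated stages. The mean centred value over 6 neutrophil and granule genes lay between 6.08 and 6.61 in E1 without EPO and between 6.15 and 6.26 with EPO, and between -0.073 and -0.034 in E2. Of these 6 genes, 5 (Mpo, Elane, S100a8, S100a9 and Ngp) were lower in E2 without EPO. Of 5 monocyte and macrophage genes 2 were lower in E2, all 3 megakaryocyte genes were higher, and of 7 erythroid genes measured 5 were higher and Kit was lower. None of 3 measured B cell and 3 measured T cell genes was called. No gene of these marker lists was called by EPO in either stage (limma; at an unadjusted p under 0.05, 3 in E1 and 6 in E2). Of 7 heat shock genes, which respond to stress, 3 were higher (Hspa1a, Hspa1b and Dnajb1) and 3 lower in untreated E2. With EPO none was called in E1 (3 at an unadjusted limma p under 0.05) and Hspa8 alone rose in E2. That rise was 1.87 by the probe set with the lowest p of 4. Means of its other probe sets in E2 were 0.17, -0.17 and -0.014 without EPO and 0.43, 0.047 and 0.22 with it. Stage also differed in day and sort, which cannot be told apart from it here.

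The other genes of the pathway were read from lists; over all genes, 2.15% were called in either direction with EPO in E1 and 8.17% in E2. In E1 none of 12 other EGR and AP-1 family genes was called with EPO by limma (3 had an unadjusted p under 0.05), and in E2 3 were higher: the stress-responsive factor Atf3 by 2.16 (adjusted p = 0.0044), Maff by 1.39 (adjusted p = 0.0222) and Mafk by 0.71 (adjusted p = 0.00329). Srf rose in both stages by the probe set with the lowest p, by 0.93 in E1 (adjusted p = 0.0305) and 1.98 in E2 (adjusted p = 0.000138), and was the only one of 6 genes for SRF and its partners to be called. On that probe set the untreated arrays ranged from -0.19 to 0.39 in E1 and from -0.34 to -0.30 in E2, and those with EPO from 0.81 to 1.15 and from 1.65 to 1.69. The other Srf probe set differed by 0.032 in E1, where it was not called, and by 0.57 in E2 (adjusted p = 0.0174). Of 28 further immediate early genes, 2 rose and 2 fell in E1, and 9 rose and 1 fell in E2. Myc, the growth regulator, rose by 2.59 in E1 and 3.35 in E2. In E1 Homer1 also rose (1.56), and Ier5 (-0.76) and Tnfaip3 (-1.55), an inhibitor of NF-kappaB signaling, fell, each by 1 probe set, the one with the lowest p. Their other probe sets were not called in E1: 5 for Homer1 at 0.047 to 0.63, 2 for Ier5 at -0.066 and -0.12, and 1 for Tnfaip3 at -0.081. Klf10 (2.13) and the survival gene Mcl1 (0.79) rose in E2 and the kinase gene Sgk1 fell (-1.18).

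Some genes that restrain ERK signaling also rose with EPO. Of 8 measured, only Spred1 was called in E1 (1.70 by the probe set with the lowest p), where Spred2 differed by 1.74 (adjusted p = 0.0587). In E2, 4 rose by the probe set with the lowest p: Spry1 by 2.41, Spred2 by 2.01, Spred1 by 1.78 and Spry2 by 0.11. On that Spry2 probe set the E1 difference was -0.72 and was not called. The Spred1 values of E1 and E2 came from different probe sets, so they do not compare the stages. On the probe set used for E1, the Spred1 means in E2 were -0.66 without EPO and 1.79 with it. Of 13 measured genes for Ras, ERK and JNK kinases and adaptors, none was called in E1 (4 at an unadjusted limma p under 0.05). In E2 Mapk8, a JNK gene, rose by 1.25 and Sos1, a Ras activator, fell by 0.14. Each of these values is from the probe set with the lowest p of 5 for the gene. The median difference over the 62 probe sets of the further immediate early genes was -0.00050 in E1 and 0.0065 in E2, near that of all probe sets. It was 0.20 and 0.038 over the 23 probe sets of the ERK feedback genes, 0.0025 and 0.0021 over the other EGR and AP-1 genes, -0.036 and 0.036 over SRF and its partners, and 0.016 and -0.0044 over the kinases and adaptors.

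**Figure D4:**
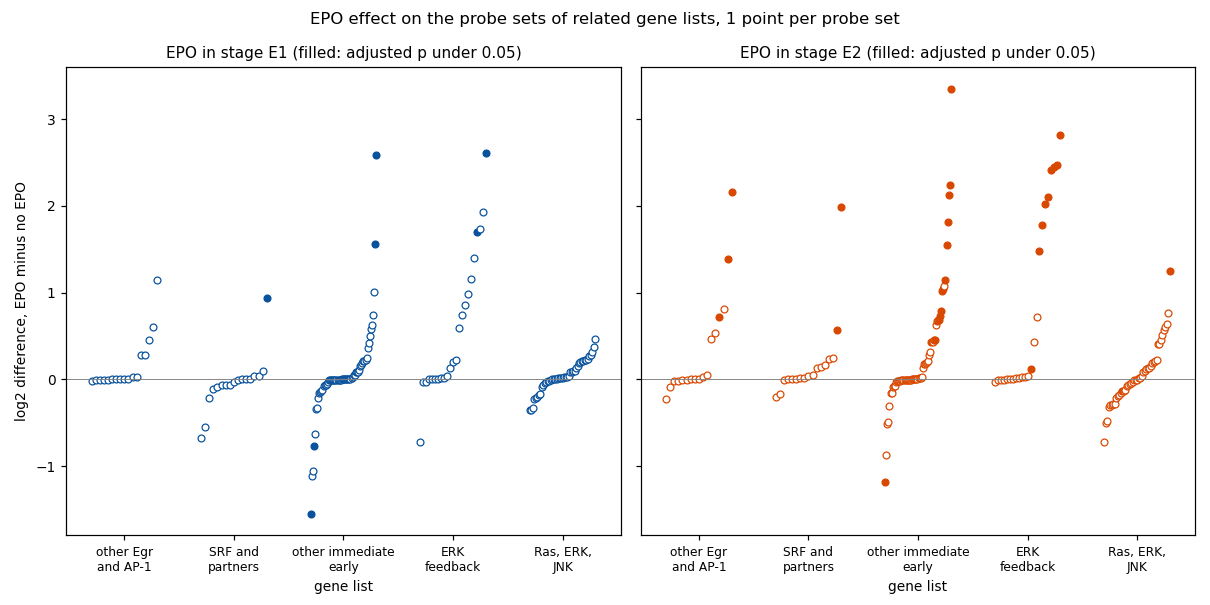
Log2 difference between arrays with and without EPO (vertical axis) for every probe set of 5 related gene lists (horizontal axis), in E1 (left, blue) and E2 (right, orange); points within a list are in order of size and filled points passed an adjusted p of 0.05. Most probe sets lie near 0, and the filled points are mainly in the immediate early and ERK feedback lists, reaching 3.35 for Myc in E2.

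The genes whose centred pattern over the 14 arrays was most like that of Egr1, by the root mean square of the difference, were Cish (0.98), Plek2 (1.0), Trib3 (1.15), Chac1 (1.22) and Fhl1 (1.24). Genes chosen in this way tend to share the directions of Egr1, so these are no separate result. Each was higher with EPO in both stages and higher in E2 in both EPO states by its point estimate. Trib3 differed by 3.69 with EPO in E1 and 0.87 in E2, whereas Egr1 differed by 3.06 and 4.08. Among the members the nearest to Egr1 were Ier2 (1.32) and Jun (1.57).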

How the data were processed

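Affymetrix mouse whole-genome 3′ arrays were hybridised with RNA from 14 samples in 4 groups. The authors processed the scans with GCOS and GC-RMA in GeneSpring. The deposited values are on a log scale, taken as log2 since GC-RMA gives log2 values, with 1 constant subtracted per probe set, so that they show differences and not levels. Array precision is limited by the number of arrays. After 64 control probe sets were left out, 45037 were tested with no filter. The platform annotation named 1 gene for 34945 of them, several for 932 and none for 9160, and 34741 of the first were matched to a current gene entry. Replicate groups came from the sample labels, and p-values measure only the spread between these samples.

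Differences were tested with limma 3.58.1 in R 4.3.3 (lmFit, eBayes) and Benjamini-Hochberg adjustment over all probe sets. EPO was tested within E1 (4 against 4 arrays) and within E2 (3 against 3), and stage and the stage by EPO interaction in 1 fit of all 14 arrays. Same-numbered E1 arrays with and without EPO deviated weakly together (correlations of deviations from group means 0.152 to 0.195 over 4 pairs). Differently numbered ones ranged from -0.236 to 0.203, so the numbers do not clearly mark pairs. E1 results are therefore also given with the replicate number as a block. In E2 same-numbered arrays did not deviate together (-0.061 to -0.016). Members and lists were chosen with earlier results of these data known. Named were all member probe sets, Cish and Kit as checks, up to 4 genes of each list with the smallest p per stage, and the 5 genes most like Egr1. Alternatives covered scaling, the study's t-test, the arrays fitted, blocking, weights, filters and each array left out. The scripts were tested on simulated data.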

Additional observations from a re-analysis of the deposited data

Results flagged for a closer look

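Of 30 groups of 4 E1 arrays examined for a single distant array, 4 held one, where chance gives about 1 in 20. Egr2 probe set 1427683_at stood at 0.195 in untreated E1 replicate 1, and Egr3 probe set 1436329_at at 0.0587 in E1 with EPO replicate 1, both on probe sets with little variation. Fos stood at -2.63 in untreated E1 replicate 4, where the other 3 arrays lay between -1.43 and -1.25. Jun probe set 1448694_at stood at -3.39 in untreated E1 replicate 2, where the others lay between -2.53 and -2.41. Groups of 3 arrays were not examined in this way.

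The EPO effect on Nab1 probe set 1438819_at differed between stages by 1.73 on the log2 scale (limma interaction, adjusted p = 0.0268), being the larger in E2. The other Nab1 probe sets were not called (adjusted p = 0.0954 and 0.729). The call was lost with the replicate block, pooled (adjusted p = 0.0713) or within stage (adjusted p = 0.150). It was also lost without 1 of 8 of the 14 arrays in turn (adjusted p from 0.0506 to 0.0801).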

How the results depend on the processing

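Counts of called members in E1 depended on the fit. From 2 they moved to 0 with the replicate block, to 4 with array weights or with only the 22518 probe sets of larger SD, to 5 with all 14 arrays in the fit and to 7 by the methods' t-test without adjustment (2 with it), and they ranged from 0 to 2 with 1 array left out. In E2 the count of 9 became 5 with the replicate block, which E2 arrays do not share beyond a number, and 7 to 9 with 1 array left out. The interaction count of 1 became 9 under quantile normalization, 2 with array weights, 0 with the replicate block (pooled over stages, or within each stage, a form added after seeing the data) and 0 to 1 with 1 array left out. Between stages, whose arrays share a number only, the block gave calls for Fos, lower in E2 by -1.08 without EPO (adjusted p = 0.00315) and -0.59 under EPO (adjusted p = 0.0451), and for Junb, higher without EPO (0.81, adjusted p = 0.0299). Between stages the counts ranged from 3 to 6 without EPO and 7 to 10 under EPO with 1 array left out. E1 and E2 arrays differed in the SD of their values over all probe sets (0.633 to 0.736 and 0.259 to 0.295), which quantile normalization makes equal. Since the values are centred per probe set, that step rescales differences and not levels, so its sizes are not comparable with those of the main fit. The cause of these shifts was otherwise not tested. Over all probe sets, calls numbered 524 in E1 (61 with the replicate block to 5194 by the unadjusted t-test), 2081 in E2 (417 to 9739 in the same settings), 187 for the interaction (44 with the block within stage to 1718 under quantile normalization) and, between stages, 9427 without EPO (7115 to 13305) and 10047 under EPO (7864 to 18996).

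Signs turned for Nab1 without EPO between stages under quantile normalization (-0.76, -0.0031 and -0.19), and for Junb (-0.50). The other sign changes concerned Egr2, Egr3 and Fosb, whose differences were near 0. Egr2 1427682_a_at with EPO in E1 became 0.00696 under quantile normalization and 0.0231 with array weights, and ranged from -0.040 to 0.058 with 1 array left out. Fosb between stages became 0.00911 (quantile) and 0.00765 (median centring) without EPO and 0.00483 and 0.00581 under EPO. Egr3 1421486_at under EPO became 0.0218 and 0.0195 in the same settings. With array weights Fosb in E2 became -0.00233 and the interaction of Egr3 1436329_at became -0.00652. With 1 array left out, Egr2 1427683_at ranged from -0.066 to 0.0071 (EPO in E1) and -0.018 to 0.029 (stage under EPO), Egr2 1427682_a_at from -0.18 to 0.20 (stage under EPO), Egr3 1421486_at from -0.0042 to 0.00024 (stage under EPO), Egr3 1436329_at from -0.030 to 0.012 (EPO in E1), -0.016 to 0.010 (EPO in E2) and -0.018 to 0.025 (interaction), and Fosb from -0.0022 to 0.0099 (EPO in E2) and -0.0086 to 0.0046 (interaction). Of 1450 alternative values for single probe sets, 31 changed sign, 41 lost a call and 37 gained one.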
